A study of Canis lupus familiaris with 34 samples.

Results

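The genes described here are a chosen part of the serotonin system: 7 receptors (HTR2A, HTR2B, HTR2C, HTR1B, HTR1D, HTR4 and HTR7), the serotonin transporter SLC6A4, the synthesis enzyme TPH1 and the degrading enzyme MAOA. They were taken by gene symbol, with earlier results of these data known, as 10 of the 23768 features counted in the mitral valves of 34 dogs. Where a gene was listed both as canine RefSeq exons and as the span of an aligned human gene (XenoRefSeq), the canine RefSeq feature was used, which held for 8 of the 10 genes. HTR4 and HTR7 were listed only as human spans, which include introns.

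Serotonin is made from tryptophan, in tissues outside the brain by the tryptophan hydroxylase TPH1, and it circulates mainly in platelets, which take it up through SLC6A4. Cells sense it through receptors that couple to different G proteins: the HTR2 receptors to Gq and phospholipase C, HTR1B and HTR1D to Gi, and HTR4 and HTR7 to Gs and cyclic AMP. The monoamine oxidases MAOA and MAOB, on the outer mitochondrial membrane, oxidise it inside cells, MAOA being the form that prefers serotonin. In heart valves the system is best known from drugs that activate HTR2B and cause thickened, leaking valves in people.

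All 34 dogs were privately owned Cavalier King Charles Spaniels of about the same age, whose mitral valves were excised after elective euthanasia and sequenced as poly-A RNA. The 10y-noCHF group (10 females and 9 males) had no congestive heart failure (CHF). It mixed 1 dog without identifiable heart disease with dogs at the stages of myxomatous mitral valve disease (MMVD) that precede CHF. By the study's account several of these had severe MMVD, so the group is not a healthy control. The 10y-MMVD-CHF group (6 females and 9 males) had MMVD that had progressed to CHF, and because response to diuretics was part of that diagnosis, CHF and its treatment cannot be told apart.

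Each library held between 46185256 and 82361245 counts, in which a read that overlapped several features counted once for each of them, and CPM below stands for counts scaled by edgeR's TMM method to libraries of a common size. The valve interstitial cell markers DCN and LUM were abundant in every dog, with lowest values of 1245 and 2111 CPM, and the endothelial marker PECAM1 was at least 192 CPM. The cardiomyocyte marker MYH7 ranged from 3.80 to 8911 CPM, so the amount of heart muscle in the samples differed widely. In bulk tissue, fewer cells of a type and less RNA per cell cannot be told apart.

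The receptors differed greatly in level. Levels can be set side by side only per length of exon, as RPKM, and only for the canine RefSeq features. In that order MAOA came first among the genes described, with a median of 38.9 RPKM and a range of 27.6 to 57.2. HTR2B was next with a median of 33.98 RPKM and a range of 11.5 to 66.5, and MAOA was the higher of this pair in 25 of 34 dogs, so their ranges overlapped broadly. HTR1B followed at 3.46 RPKM and its range, up to 5.94 RPKM, did not overlap that of HTR2B. HTR2A stood at 0.980 RPKM and was below HTR1B in 33 of 34 dogs. HTR1D and SLC6A4 were close to the limit of detection, with medians of 0.0408 and 0.0193 RPKM, and HTR1D was the higher one in 18 of 34 dogs. HTR2C and TPH1 had medians of 0.

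Of the 10 genes, 8 had at least 100 counts over all dogs and were tested. Among these, 1 was called with CHF at an FDR of 0.1 (edgeR), MAOA, which rose. The study had already reported MAOA as differentially expressed in these same dogs, so this call is not an independent result. Of all 19568 features tested, 23 were called, or 0.118%, and 5 of them were higher in 10y-MMVD-CHF, or 0.0256%. Genes listed both as exons and as a human span entered these shares with both features. MAOA was such a gene, with its exons (FDR 0.0678) and its human span (FDR 0.0435) both among the 5 (edgeR). DESeq2 called 0.327% of all features, and of the 8 genes MAOA alone. None of the 8 genes was called for sex, where 28 features or 0.143% were called, and none for a difference in the CHF effect between the sexes, where edgeR called 0 features, 1178 had an unadjusted p below 0.05 and DESeq2 called 3.

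**Figure D1:**
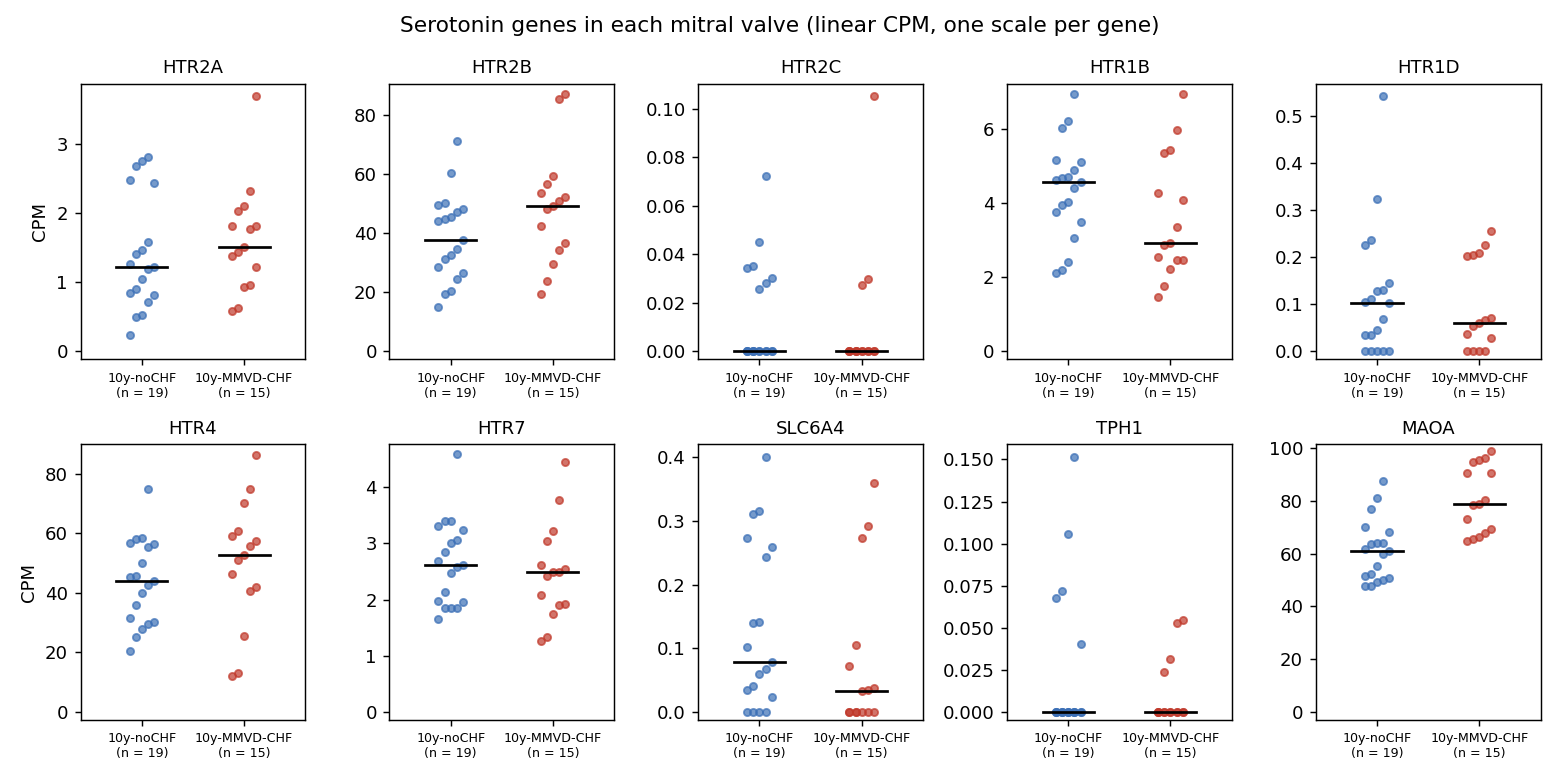
CPM of each of the 10 serotonin genes in every dog, on a linear axis with its own scale for each gene, for the 19 dogs of 10y-noCHF (blue) and the 15 dogs of 10y-MMVD-CHF (red). Points are dogs and bars are medians. All 15 MAOA values of 10y-MMVD-CHF lie above the 10y-noCHF median, while the groups of the other genes overlap over most of their range.

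HTR2B, the receptor tied to drug-induced valve disease, lies on canine chromosome 25 (canFam4, chr25:43226286-43240447, minus strand). It had 762 to 6253 counts per dog, so depth did not limit its measurement. Its level ran from 15.1 CPM (CAV748) through a median of 37.8 to 71.0 CPM in 10y-noCHF. In 10y-MMVD-CHF it ran from 19.5 (CAV1047) through 49.1 to 87.0 CPM. The groups overlapped: 10 of 15 dogs with CHF were above the 10y-noCHF median, and 2 were above every dog without CHF. The log2 fold change was 0.32 ± 0.19 (SE; 95% interval -0.07 to 0.71), which did not pass the test (edgeR, FDR 0.848). It was 0.21 without CAV1872, 0.10 with the mean of the macrophage markers as a covariate (edgeR, FDR 0.864) and 0.45 with that of the endothelial markers (edgeR, FDR 0.628). HTR2B differed 5.76-fold between the lowest and the highest dog, and MAOA differed 2.08-fold.

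The exons of HTR2B lie inside the span of PSMD1, a proteasome subunit gene on the opposite strand, and the counting used no strand. Outside HTR2B the PSMD1 span held 2.48 reads per base over all dogs against 70.9 reads per base on the HTR2B exons, or 3.49%. Reads on the wider span of HTR2B gave a log2 fold change of 0.31 with CHF (edgeR, FDR 0.838), but 70.8% of them were the exon reads themselves. The reads outside the exons gave a difference of 0.27 on the log2 scale (permutation test within sex, two-sided, p = 0.174). Without strand, those reads cannot be told from reads of PSMD1.

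HTR2A, which mediates contraction of vascular smooth muscle and platelet activation, lies on chromosome 22 (chr22:4417008-4474072). It was low in level, with 18 to 211 counts per dog. In 10y-noCHF it ran from 0.231 (CAV748) through a median of 1.22 to 2.81 CPM, and in 10y-MMVD-CHF from 0.586 through 1.51 to 3.70 CPM (CAV2156). Its log2 fold change with CHF was 0.18 ± 0.28 (edgeR, FDR 0.957). Without CAV2156, the highest dog, it was 0.06, and with the macrophage or the endothelial mean as a covariate it was 0.10 or 0.39 (edgeR, FDR 0.929 and 0.735). In females all 6 dogs with CHF were above the median of the 10 dogs without, and their SD was 0.254 CPM against 0.756, while in males both medians were 1.22 CPM. The CHF effect did not differ detectably between the sexes (interaction 0.37 ± 0.57, FDR 0.994). Of the reads on the HTR2A span, 31.9% fell on the canine exons, and reads outside them gave a difference of -0.03 on the log2 scale (two-sided permutation test within sex, p = 0.922).

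HTR2C, a receptor best known from the brain, lies on the X chromosome (chrX:88140047-88305373) and was at 0 in 24 of 34 dogs, with 28 counts in all and at most 6 in any dog. A count of 0 allows up to 3 counts, which is 0.0359 to 0.0769 CPM over these libraries, a limit that covers counting error only. It takes counts as independent, and because both reads of a pair were counted, the true limit is higher. No difference between groups was detectable at this depth: with the filter on low counts dropped, the log2 fold change was -0.47 ± 0.76 (edgeR, FDR 0.929), and the longer human span, with 315 counts, gave the opposite direction, 0.40 ± 0.57 (edgeR, FDR 0.954).

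HTR1B, a Gi-coupled receptor of vascular smooth muscle and nerve endings, lies on chromosome 12 (chr12:38869413-38870583, minus strand). In 10y-noCHF it ran from 2.11 through a median of 4.58 to 6.96 CPM, and in 10y-MMVD-CHF from 1.46 through 2.94 to 6.96 CPM. In 10y-MMVD-CHF, 11 of 15 dogs were below the 10y-noCHF median, yet the highest dogs of both groups stood at the same level. The log2 fold change was -0.26 ± 0.19 (95% interval -0.64 to 0.12, edgeR, FDR 0.869). With the macrophage mean as a covariate it was -0.46 ± 0.19 (edgeR, unadjusted p = 0.0190, FDR 0.452).

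The lower values of HTR1B were mostly those of males with CHF. The 9 males with CHF had a median of 2.55 CPM (1.46 to 5.45), and the 9 males without had 4.71 CPM (2.11 to 6.05), with 8 of 9 dogs with CHF below the median of the others. The 6 females with CHF had a median of 4.72 CPM (2.46 to 6.96) against 3.997 CPM (2.41 to 6.96) in the 10 females without. Within males the log2 fold change was -0.58 ± 0.25 with an unadjusted p of 0.0330 and an FDR of 0.9999 (edgeR), and within females it was 0.12 ± 0.25. The test of the difference itself gave 0.70 ± 0.36 with an unadjusted p of 0.0637 and an FDR of 0.830 (edgeR), so a sex difference in the CHF effect was not established. HTR1B is also counted over a span of 2421 bases, of whose reads 61.2% fell on the canine exons. The reads outside the exons gave a difference of -0.39 on the log2 scale (permutation test within sex, two-sided, p = 0.0227, not adjusted for the 6 genes so compared).

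HTR1D, a close relative of HTR1B, lies on chromosome 2 (chr2:75590781-75592443). It had 226 counts in all and was at 0 in 9 of 34 dogs. The highest dog, CAV749 of 10y-noCHF, held 42 of those counts. The log2 fold change was -0.34 ± 0.67 (95% interval -1.70 to 1.02, edgeR, FDR 0.968), without CAV1259 it was -0.59 and without CAV749 it was 0.02, so at this depth not even its direction can be given.

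HTR4, a Gs-coupled receptor known from gut and atrial muscle, lies on chromosome 4 (chr4:61099415-61272556). It was counted over 166507 bases including introns, so its reads cannot be assigned to exons. It had 515 to 5778 counts per dog. In 10y-noCHF it ran from 20.3 through a median of 43.8 to 74.8 CPM, and in 10y-MMVD-CHF from 12.03 (CAV1876) through 52.6 to 86.1 CPM (CAV614), so dogs with CHF held both the lowest and the highest values. This gave 0.19 ± 0.21 on the log2 scale (edgeR, FDR 0.942), with 0.12 without CAV614 and 0.28 without CAV1876. With the macrophage mean as a covariate the sign turned, to -0.0476, and with the endothelial mean it was 0.32 (edgeR, FDR 0.725). In males 8 of 9 dogs with CHF were above the median of those without, with a log2 fold change of 0.39 ± 0.20 (unadjusted p = 0.0707, edgeR within males). In females it was -0.05 ± 0.37, and the difference between the sexes was -0.44 ± 0.42 (edgeR interaction, FDR 0.947).

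HTR7, the other Gs-coupled receptor, lies on chromosome 28 (RefSeq gene chr28:5588358-5595285, minus strand). It was counted over a span of 118939 bases, far longer than the RefSeq gene. The span of the human pseudogene HTR7P1 lies wholly inside it and held 5098 reads, against 5479 on the HTR7 span, so most of what is listed as HTR7 was counted on both. It ran from 1.65 through 2.62 to 4.60 CPM in 10y-noCHF and from 1.26 through 2.49 to 4.45 CPM in 10y-MMVD-CHF. With CHF the log2 fold change was -0.09 ± 0.15 (95% interval -0.40 to 0.22, edgeR, FDR 0.964). It was -0.16 without CAV1519 and -0.00716 without CAV743, and with the endothelial or the macrophage marker mean as a covariate it was 0.0185 or -0.21. Within females it was 0.21 ± 0.23 and within males -0.34 ± 0.20, with an interaction of 0.54 ± 0.30 (unadjusted p = 0.0786, FDR 0.830, edgeR).

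**Figure D2:**
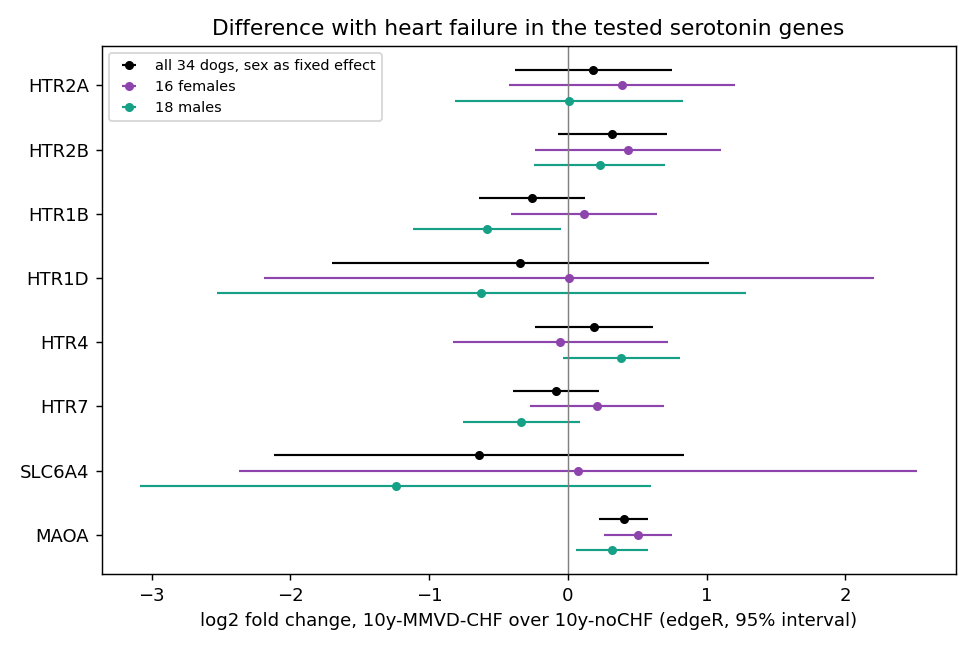
log2 fold change of 10y-MMVD-CHF over 10y-noCHF with its 95% interval (edgeR) for the 8 tested serotonin genes, in all 34 dogs with sex as a fixed effect (black), in 16 females (purple) and in 18 males (green). The intervals of MAOA lie above 0 in all 3 fits, and those of HTR1D and SLC6A4 are the widest.

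The transporter SLC6A4, which clears serotonin from the blood and tissue fluid, lies on chromosome 9 (chr9:44194421-44217174, minus strand). It had 235 counts over all dogs and was at 0 in 7 of 15 dogs with CHF and in 4 of 19 without. Its highest values were 0.360 CPM in 10y-MMVD-CHF (CAV487, 30 counts) and 0.400 CPM in 10y-noCHF (CAV749, 31 counts), and the medians were 0.0330 and 0.0786 CPM. In males 8 of 9 dogs with CHF were below the median of those without, with a log2 fold change of -1.24 ± 0.88, and in females 2 of 6 dogs with CHF were above every dog without, with a log2 fold change of 0.07 ± 1.16. The interaction was 1.30 ± 1.45 (edgeR, FDR 0.9745). In both sexes together the log2 fold change was -0.64 ± 0.73 (95% interval -2.12 to 0.83, edgeR, FDR 0.943), and without CAV487 it was -1.07 (leave-one-out). Of the reads on the longer span, 51.8% fell on the canine exons. The reads outside the exons gave a difference of -0.19 (permutation test within sex, two-sided, p = 0.617).

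TPH1, the first and rate-limiting enzyme of serotonin synthesis outside the brain, lies on chromosome 21 (chr21:41211247-41229722, minus strand). It had 38 counts in all, was at 0 in 25 of 34 dogs, and reached 10 counts in 1 dog, CAV579 of 10y-noCHF. With the filter on low counts dropped, the log2 fold change was -0.72 ± 0.87 (edgeR, FDR 0.892), so no difference was detectable at this depth. TPH2, the form of neurons, had 99 counts over all dogs. Neither hydroxylase had enough reads for a comparison.

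MAOA lies on the X chromosome (chrX:37886004-37952154) and was counted on 15 exon intervals of 1728 bases, with 2654 to 6958 counts per dog. In 10y-noCHF it ran from 47.6 (CAV748) through a median of 60.9 to 87.7 CPM (CAV1049). In 10y-MMVD-CHF it ran from 64.9 (CAV487) through 79.0 to 98.9 CPM (CAV2102). The groups overlapped between these limits, but all 15 dogs with CHF were above the median of those without, 6 were above every dog without CHF, and 14 of 19 dogs without were below every dog with CHF.

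With CHF, MAOA rose by 0.40 ± 0.09 on the log2 scale (SE; 95% interval 0.23 to 0.58), and the FDR was 0.0678 (edgeR). The ratio of the group medians was 1.30. DESeq2 gave 0.40 with an FDR of 0.00737, and permuting CHF within each sex on the log2 CPM gave a two-sided p of 0.000120. The call was near its threshold: it failed an FDR of 0.05, and leaving out any 1 of 12 dogs moved the FDR to between 0.101 and 0.164. These were CAV1196, CAV1259, CAV1519, CAV1872, CAV2102, CAV2156, CAV648, CAV285, CAV444, CAV488, CAV749 and CAV901. The estimate itself hardly moved, from 0.38 to 0.45 over the 34 dogs left out in turn.

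The higher MAOA level was seen in both sexes. Females with CHF had 84.7 ± 10.8 CPM (SD, n = 6) and females without had 59.9 ± 10.3 (SD, n = 10), and males had 78.2 ± 13.7 (SD, n = 9) and 62.6 ± 13.5 CPM (SD, n = 9). The log2 fold change was 0.50 ± 0.12 within females (edgeR, FDR 0.213) and 0.32 ± 0.12 within males (edgeR, unadjusted p = 0.0186, FDR 0.9999), where edgeR called 0 features in either sex. An unadjusted p below 0.05 was reached by 2007 features in females and 685 in males, and DESeq2 called 419 and 38, MAOA among those of females with an FDR of 0.0158. The CHF effect did not differ detectably between the sexes (interaction 0.18 ± 0.17, edgeR, FDR 0.951). No difference between females and males was detected for this X-linked gene, with a log2 fold change of 0.01 and a 95% interval of -0.16 to 0.19.

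**Figure D3:**
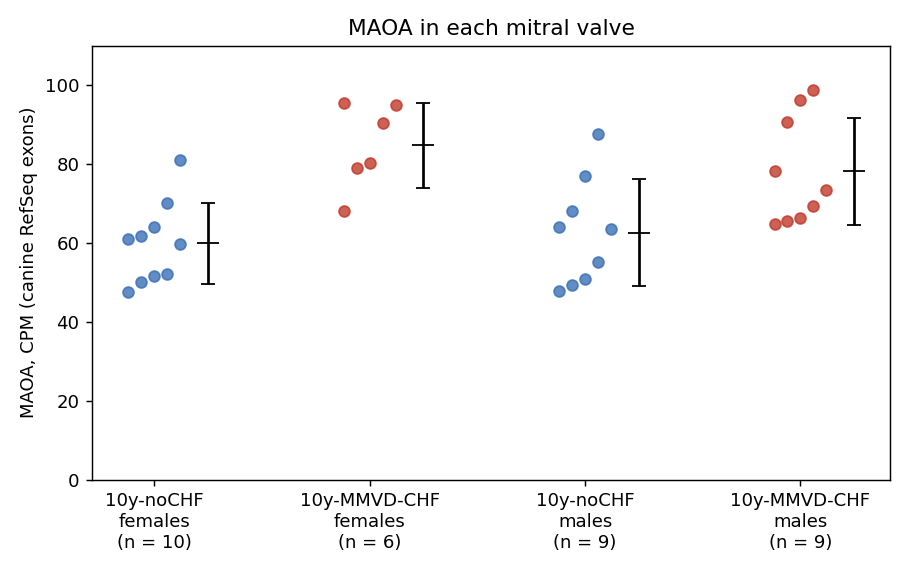
MAOA in CPM in each dog, for females and males of 10y-noCHF (blue) and 10y-MMVD-CHF (red), on an axis that starts at 0. Points are dogs, and the black bars beside them are the mean and SD of 84.7 ± 10.8 against 59.9 ± 10.3 CPM in females and 78.2 ± 13.7 against 62.6 ± 13.5 CPM in males.

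The exon intervals held 42.8% of the reads on the 69981 bases of the whole MAOA span. The remaining reads, in introns and in untranslated or unlisted exons, also rose with CHF, by 0.31 on the log2 scale (permutation test within sex, two-sided, p = 0.000690), and the whole span gave 0.35 with an FDR of 0.0435 (edgeR). The share of reads on exons was 43.9% ± 4.99 (SD, n = 15) with CHF and 42.4% ± 4.21 (SD, n = 19) without, a difference within the spread between dogs (permutation test within sex, p = 0.268). The exon and non-exon reads come from the same libraries and are not independent evidence.

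MAOB, the neighbouring paralogue that prefers other amines, was more abundant than MAOA per length in 33 of 34 dogs, with a median of 87.4 RPKM. It did not pass the test, with 207 ± 45.7 CPM (SD, n = 15) with CHF and 193 ± 53.0 CPM (SD, n = 19) without, a difference of 0.08 ± 0.13 on the log2 scale (edgeR, FDR 0.961). The share of MAOA was 36.4% ± 6.22 (SD, n = 15) of the summed RPKM of both oxidases in dogs with CHF and 31.8% ± 4.29 (SD, n = 19) without. With sex in the model, the difference was 5.20 percentage points (two-sided permutation test within sex, p = 0.00384). This share rests on the same MAOA values as the result above.

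Markers of other cells were set beside the MAOA result. The mean of the 10 macrophage markers was 0.30 higher with CHF on the log2 scale (permutation test within sex, two-sided, p = 0.0778), with summed levels of 644 to 1757 CPM with CHF and 517 to 1879 CPM without. The mean of the 10 endothelial markers was 0.19 higher with CHF (permutation test within sex, two-sided, p = 0.0725), with summed levels of 656 to 1683 CPM with CHF and 454 to 969 CPM without. Single endothelial markers had a median log2 fold change of only 0.06, with 7 higher and 3 lower. Of these, VWF, the von Willebrand factor of endothelium and platelets, was called, with 205 ± 125 CPM (SD, n = 15) with CHF and 79.6 ± 50.4 (SD, n = 19) without and a log2 fold change of 1.40 ± 0.30 (edgeR, FDR 0.0678). No macrophage marker was called, beside 0.118% of all features tested. The defining markers CD163 and CSF1R were present in every dog. With the macrophage mean as a covariate, the log2 fold change of MAOA was 0.31 (edgeR, unadjusted p = 0.000202, FDR 0.0880). Without that covariate it was 0.40 (edgeR, unadjusted p = 4.50e-05, FDR 0.0678). The endothelial mean as a covariate, which includes VWF, gave MAOA 0.43 (edgeR, FDR 0.0706). With the mean of the 19 cardiomyocyte markers as a covariate MAOA stood at 0.41 (edgeR, FDR 0.0365), and with that of the 10 valve interstitial cell markers at 0.42 (edgeR, FDR 0.0189). Without CAV614 and CAV1047, the libraries least like any other (highest correlation of counts with another dog 0.923 for CAV1047 and 0.842 for CAV614), it was 0.44 (edgeR, FDR 0.0413).

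Platelets, which carry serotonin in blood, left few marker reads in these valves. The platelet list summed to 3.80 to 15.1 CPM with CHF and 3.84 to 35.02 CPM without, with 9 of 10 genes listed and PPBP at 0 in 6 dogs. The mast cell list summed higher, to 45.8 to 119 CPM with CHF and 37.9 to 96.1 CPM without. Its defining markers were low, with medians of 0.130 CPM for CPA3, 0.0615 for TPSAB1 and 1.23 for MS4A2. CPA3 was at 0 in 6 dogs, TPSAB1 in 12 and MS4A2 in 1, so most of the sum came from other genes of the list. No gene of either list was called with CHF, where 0.118% of all features tested were called. Their part in the level of TPH1 was not tested.

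A wider set of 66 genes of serotonin signalling was followed in 4 lists, and 59 of them were tested. None was called with CHF or sex, where 0.118% and 0.143% of all features tested were called. At an unadjusted p below 0.05 there were 4 with CHF, against 6.31% of all features tested. The median log2 fold change over the 59 genes was 0.05, beside 0.01 over all features.

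Most of the other serotonin receptors had a median below 1 CPM. Of 10 listed, 8 were tested, 4 of which had a positive and 4 a negative log2 fold change, and none had an unadjusted p below 0.05. HTR1A, the Gi-coupled receptor studied mostly in neurons, stood at 0.297 RPKM in the median dog and at 0.572 ± 0.630 CPM (SD, n = 15) with CHF and 0.393 ± 0.377 (SD, n = 19) without. HTR3C, a subunit of the serotonin-gated ion channel, and HTR1F, another Gi-coupled receptor, were listed only as human spans, with medians of 3.55 and 0.600 CPM.

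In the list of synthesis, storage and uptake 13 of 15 genes were tested and none was called. SPR, which makes the cofactor tetrahydrobiopterin that TPH1 needs, had 25.04 ± 3.18 CPM (SD, n = 15) with CHF and 27.5 ± 3.28 (SD, n = 19) without on its human span, with 13 of 15 dogs with CHF below the 10y-noCHF median and a log2 fold change of -0.14 (edgeR, unadjusted p = 0.0420, FDR 0.778). PCBD1 and PTS, of the same cofactor pathway, and SLC3A2, the heavy chain of the tryptophan carrier, had the highest RPKM as listed, but PCBD1 and PTS were listed only as human spans, so their levels cannot be set beside that of SLC3A2. Their log2 fold changes were -0.07, -0.04 and 0.13, and the smallest FDR among them was 0.839 (edgeR).

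In degradation and conversion, 8 of 11 genes were tested and none was called. ALDH1A1, an aldehyde dehydrogenase, was abundant, with a median of 39.6 RPKM, and its log2 fold change was 0.03. ASMT, the last enzyme of melatonin synthesis, had 19.8 ± 5.02 CPM (SD, n = 15) with CHF and 22.9 ± 3.91 (SD, n = 19) without on its human span, with a log2 fold change of -0.22 (edgeR, unadjusted p = 0.0344, FDR 0.761).

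Receptor coupling was the largest list, with all 30 genes tested and none called. Of these, 25 had a positive log2 fold change and 5 a negative one, with a median of 0.08, while 52.6% of all features tested had a positive one. RGS5, which shortens signals of Gq and Gi and marks pericytes, had 744 ± 360 CPM (SD, n = 15) with CHF and 504 ± 146 (SD, n = 19) without, a log2 fold change of 0.58 ± 0.20 (edgeR, unadjusted p = 0.00755, FDR 0.556). S100A10, an adaptor that brings HTR1B and HTR4 to the cell surface, had 100.2 ± 13.9 CPM (SD, n = 15) with CHF and 118 ± 17.5 (SD, n = 19) without. All 15 dogs with CHF were below its 10y-noCHF median, yet the log2 fold change of -0.25 ± 0.07 did not pass (edgeR, unadjusted p = 0.00169, FDR 0.385). GNAI1, an inhibitory G protein subunit, was the 1 gene of the 59 with an unadjusted p below 0.05 for sex, a share to set beside 2.98% of all features, with 18.9 ± 6.02 CPM (SD, n = 16) in females and 14.97 ± 5.35 (SD, n = 18) in males (edgeR, FDR 0.9997). GNAS and GNAI2, the most abundant G protein genes, had log2 fold changes of -0.00267 and 0.03. RGS5, S100A10 and GNAI1 were listed only as human spans, which include introns.

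**Figure D4:**
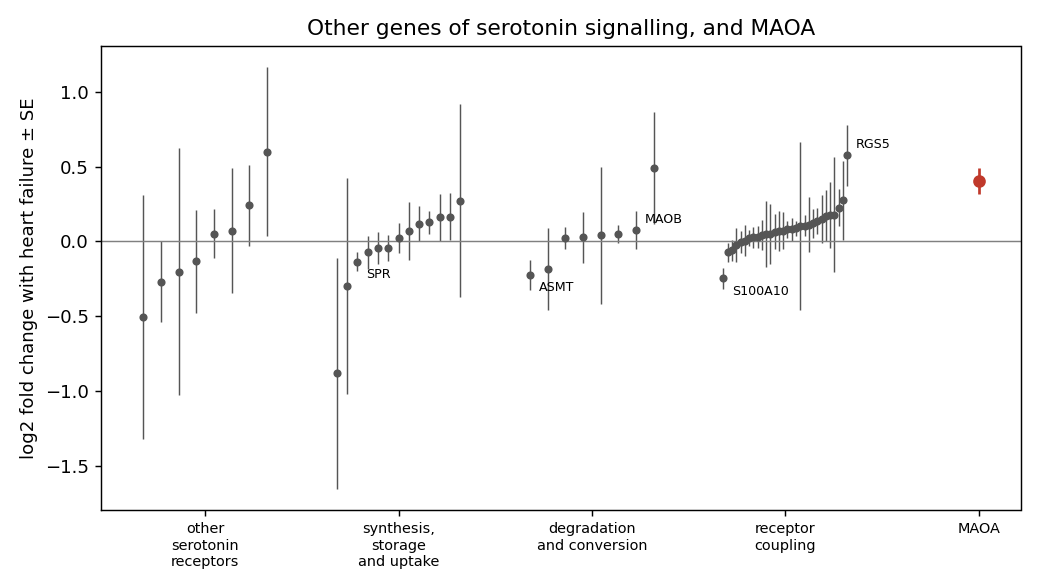
log2 fold change of 10y-MMVD-CHF over 10y-noCHF with its SE (edgeR, 34 dogs) for the 59 tested genes of the 4 lists, ordered by size within each list, with MAOA in red on the right. None of the 59 was called, and RGS5 at 0.58 and S100A10 at -0.25 are among the labelled genes.

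After the mean of each status and sex was removed, Spearman's rho between pairs of them ran from -0.16 to 0.60 over 34 dogs, with a median of 0.14 in 28 pairs, 23 of which were positive. The pair at 0.60 was HTR2B and HTR4, and MAOA was nearest to HTR2A at 0.36. These pairs share libraries and depth, and no p is attached.

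Across dogs, the genes were compared with the mean log2 CPM of 10 cell marker lists, which made 80 relations. Of these, 12 had an adjusted permutation p below 0.1 for both Pearson's r and Spearman's rho. HTR4 took part in 6 of them. It was lower where markers of Schwann cells and nerve were higher (r = -0.73, rho = -0.72, both with a permutation p of 1e-05, the smallest that 100000 permutations can give, and an adjusted p of 0.0008), with r = -0.74 in the dogs with CHF, -0.79 in those without, and r = -0.65 without the 2 dogs farthest from the median. It was also lower with the cardiomyocyte list (r = -0.56, rho = -0.61) and higher with the macrophage list (r = 0.54, rho = 0.50). The other 3 of its relations were negative, with the mast cell (r = -0.44), endothelium (r = -0.42) and smooth muscle lists (r = -0.49).

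MAOA was higher in dogs with higher macrophage markers (r = 0.58, permutation p = 0.00039, adjusted p = 0.0098; rho = 0.55), with r = 0.43 in the dogs with CHF, 0.66 in those without CHF and 0.54 without the 2 farthest dogs. Its relation with the valve interstitial cell list was r = 0.49 and rho = 0.50, with r = 0.23 among dogs with CHF and 0.65 among the others. HTR2A followed the valve interstitial cell list (r = 0.59, rho = 0.52) and ran against the cardiomyocyte list (r = -0.42, rho = -0.46). HTR2B followed the macrophage list (r = 0.52, rho = 0.51) and ran against that of Schwann cells and nerve (r = -0.50, rho = -0.50). For SLC6A4 the correlation with the platelet list was r = 0.21 and rho = 0.14, and with the mast cell list r = -0.00381 and rho = 0.00658, neither past the threshold.

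Of the 12 relations, 3 stayed below 0.1 in both measures without CAV614 and CAV1047. These were HTR2A with the valve interstitial cell list (r = 0.65), HTR4 with that of Schwann cells and nerve (r = -0.68) and MAOA with the macrophage list (r = 0.57).

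**Figure D5:**
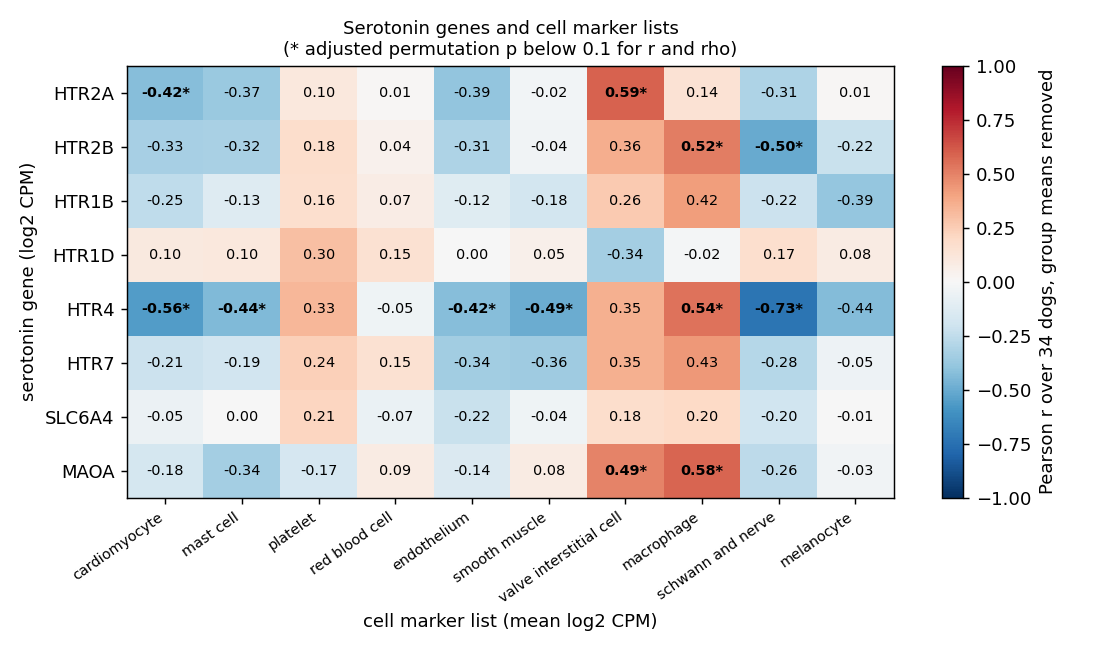
Pearson's r over 34 dogs between the log2 CPM of each tested serotonin gene (rows) and the mean log2 CPM of each cell marker list (columns), after removing the mean of each status and sex. Stars mark the 12 relations with an adjusted permutation p below 0.1 for both r and rho, from -0.73 for HTR4 with Schwann cell and nerve markers to 0.59 for HTR2A with valve interstitial cell markers.

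Over 15107 features with a mean of at least 1 CPM, the nearest in rank to HTR4 over the 34 dogs was CDH23, a cadherin, with a Spearman rho of 0.90, followed by C10orf105 at 0.89 and SLC41A2, a magnesium transporter, at 0.87. HTR2B was nearest to EMP3 at 0.77, S100A11 at 0.75 and CAP1, an actin regulator, at 0.74. HTR2A was nearest to CIC at 0.74, PTPRS at 0.73 and SALL3 at 0.71. MAOA was nearest to INVS at 0.73, LPIN2, a phosphatidate phosphatase, at 0.72 and TMED2, a protein of vesicle traffic, at 0.72. HTR7 was nearest to DKK2, an inhibitor of WNT signalling, at 0.70, AFF2 at 0.69 and PLBD1 at 0.67. HTR1B had no neighbour as near, with KCTD17 at 0.60, MPIG6B at 0.57 and LINC02609 at 0.55. None of these 18 genes was called with CHF, where 0.118% of all features tested were called.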

How the data were processed

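Per the labels and the study's methods, the authors aligned reads to canFam4 (UU_Cfam_GSD_1.0) using STAR, counted them with featureCounts 2.0.3 and deposited the unscaled counts. A read was assigned to all features it overlapped, without strand, and both reads of a pair counted. The table has 1 column of counts of no labelled sample, which was not used. Groups follow the labels, and coordinates are those of RefSeq on the same build.

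The 19568 features whose counts summed to 100 or more were tested by edgeR's quasi-likelihood test (4.0.16, R 4.3.3) on TMM-scaled libraries with sex in the model, at a Benjamini-Hochberg FDR of 0.1. Standard errors were derived from its test statistic. DESeq2 1.42.0, limma 3.58.1 and scipy 1.17.1 served alternatives and correlations. The log2 CPM used a prior count of 2. Permutation tests drew 100000 resamples, two-sided, within sex, or within status and sex for correlations. Scripts were tested on simulated data.

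The genes and lists were chosen with earlier results of these data known. Named from the wider lists are genes with an FDR below 0.1 or an unadjusted p below 0.05 and the 3 with the highest RPKM per list, of which 1 is not reported here. Named as nearest are the 3 features with the highest rho for genes of at least 1 CPM.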

Additional observations from a re-analysis of the deposited data

How the results depend on the processing

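MAOA kept its direction and its call in 14 alternatives of tool, scaling, filter, covariate and feature, with log2 fold changes of 0.31 to 0.44 and FDRs of 0.00737 to 0.0880, kept its direction in 2 permutation tests that give no FDR, and lost the call at an FDR threshold of 0.05, where 0 of the serotonin genes were called, and without any 1 of the 12 dogs named above. The lowest of the 14 fold changes, 0.31, came with the macrophage covariate. There the unadjusted p of MAOA was 0.000202, against 4.50e-05 in the main fit (edgeR), and its call was made among 46 features called rather than 23. The number of serotonin genes called with CHF was 0 to 1 over the dogs left out in turn. The number of all features called with CHF was 23, and it was 64 with DESeq2 (including all 23), 9 at an FDR of 0.05, 13 without the sex term and 46 with the macrophage mean as a covariate, an alternative chosen after seeing the data, as were the valve interstitial cell and endothelial covariates and the reads outside exons. Without 1 dog it was 8 to 28, and it moved by over 1.5 times without CAV1196, CAV1259, CAV1519, CAV1097, CAV2102, CAV2156, CAV648, CAV828, CAV1790, CAV447, CAV1939, CAV444, CAV488, CAV749 or CAV901. DESeq2 called 3 features for the interaction, 419 within females and 38 within males, where edgeR called 0. The relations with marker lists numbered 12, or 3 without CAV614 and CAV1047. Among values that were never called, reads outside exons reversed HTR2A to -0.0253, the macrophage covariate reversed HTR4 to -0.0476 and the endothelial covariate reversed HTR7 to 0.0185. Leaving out 1 dog also reversed the CHF effect of HTR1D (-0.59 to 0.0195), the sex effects of HTR1D (-0.47 to 0.14), HTR4 (-0.0934 to 0.0656) and MAOA (-0.0127 to 0.0606), and the interactions of HTR1D (-0.0337 to 1.02) and HTR2B (-0.0464 to 0.36). The causes were not tested. Depth limits HTR1D, HTR2C, SLC6A4 and TPH1, whose medians were at most 4 counts per dog. No paired analysis was possible because the groups share no dogs and the labels give each dog a number of its own.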
